A study of Mus musculus with 4 samples.

Results

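This account covers 8 mouse genes of pyroptosis and of the inflammasome in gut epithelium: the gasdermin genes Gsdmc2, Gsdmc and Gsdmd, the caspase genes Casp1, Casp4 and Casp8, the sensor gene Nlrp6 and the adaptor gene Pycard. They were found as the probe sets (groups of short oligonucleotides that report a transcript together) whose platform gene symbol is one of these names, which gave 11 of the 45101 probe sets on the array. Of these, 9 name 1 gene and 2 name a pair of genes, so that 7 of the 8 genes had a probe set of their own. Gsdmc was named only on a probe set that it shares with Gsdmc2, and it has no value of its own here.

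The samples were epithelial cells cut by laser from 10 µm sections of OCT-embedded ileum or proximal colon of C57/Bl6 mice, which were either germ-free (raised without microbes) or wild type controls. Both regions were taken in both states, which gives 4 groups: germ-free and wild type ileum, and germ-free and wild type colon. Sex, age and any mutant allele are not given in the labels. The RNA of about 16000 cells (about 4000 from each of 4 mice) was pooled per group and amplified in 2 rounds for a single array. Every difference below is therefore between single pooled arrays: it has no replicate check and no p-value, and its precision is limited by having so few arrays. Only the labels of the germ-free samples mention a hematoxylin stain.

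Inflammasomes are protein platforms that a sensor such as NLRP6 builds, through the adaptor ASC (the product of Pycard), when it meets microbial products or damage. They activate caspase-1, which matures interleukins 1β and 18 and cuts gasdermin D, whose freed end forms pores in the plasma membrane and brings on the lytic death called pyroptosis. Mouse caspase-4, long called caspase-11, binds bacterial lipopolysaccharide in the cytosol and cuts gasdermin D directly, while caspase-8 starts death receptor apoptosis and can restrain or replace parts of this pathway. In the mouse gut the Gsdmc genes form a cluster of close copies that epithelial cells express and that type 2 cytokines induce.

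In the colon, Gsdmc2 was lower and Casp4 higher on the germ-free array, each by at least 2-fold, while the other 5 genes with a probe set of their own stayed within 2-fold. In the ileum none of the 7 genes was past 2-fold. Casp4 and Gsdmc2 were also the members past 2-fold between the regions in wild type mice. Intensities are quantile-normalized and have arbitrary units. They can be compared between arrays for the same probe set but not between probe sets, and values under 62.4, the pooled median of all arrays, were set to that floor before any difference was taken.

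**Figure D1:**
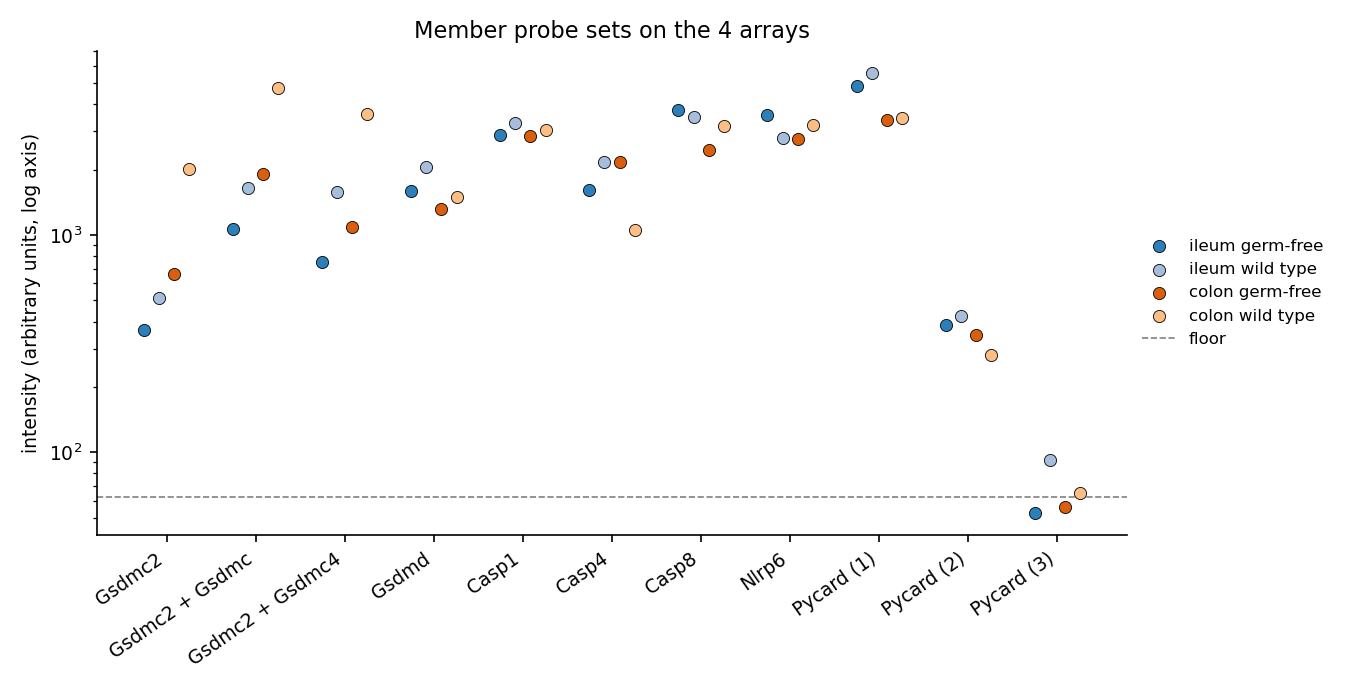
Intensity (log axis, arbitrary units) of the 11 probe sets on each of the 4 arrays, 1 point per array, with the floor of 62.4 as a dashed line. The 3 Gsdmc probe sets are highest on the wild type colon array, where Casp4 has its lowest value, 1058.

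Gsdmc2 lies on chromosome 15 at 63824328 to 63845193 (RefSeq annotation of GRCm38.p6), between Gsdmc (63775971 to 63808739) and Gsdmc3 (63857605 to 63878579), with Gsdmc4 at 63891140 to 63912319. The probe set that names Gsdmc2 alone read 366 on the germ-free ileum array, 512 on the wild type ileum array, 658 on the germ-free colon array and 2013 on the wild type colon array. The wild type colon array stood far above the other 3. Germ-free colon was thus 3.06-fold lower than wild type colon (a log2 change of -1.61), and 0.63% of the 11746 genes measured in colon had a change as low or lower.

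The probe set shared by Gsdmc2 and Gsdmc gave the same order of the arrays. It read 1061 in germ-free ileum, 1639 in wild type ileum, 1912 in germ-free colon and 4744 in wild type colon, and was 2.48-fold lower in germ-free than in wild type colon. The probe set shared by Gsdmc2 and Gsdmc4 read 752, 1572, 1094 and 3598 in that order of groups and was 3.29-fold lower in germ-free than in wild type colon. All 3 probe sets were therefore lowest in germ-free ileum and highest in wild type colon. They may read the same transcripts, since the genes of the cluster are near copies, so they are not independent of each other and do not tell which copy differed.

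For these probe sets the ileum arrays were nearer to each other than the colon arrays were. Germ-free ileum had a log2 change of -0.48 against wild type ileum for Gsdmc2 alone and of -0.63 for Gsdmc2 with Gsdmc. For Gsdmc2 with Gsdmc4 it was -1.06, a 2.09-fold lower value and the only member probe set past 2-fold in the ileum. The colon change of Gsdmc2 minus its ileum change was -1.13 log2, and 3.63% of genes measured in both regions had a difference as low or lower. With no replicate this difference of differences has no test.

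Gsdmd, on chromosome 15 at 75862144 to 75867408, encodes the gasdermin that inflammatory caspases cut. It read 1593 in germ-free ileum, 2046 in wild type ileum, 1315 in germ-free colon and 1489 in wild type colon. The ileum arrays were above the array of the same state from colon, and each germ-free array was below the wild type array of its region. Germ-free minus wild type was -0.18 log2 for colon and -0.36 for ileum, against an SD between probe sets of the same gene of 0.32 in colon and 0.22 in ileum. That SD, from 2647 genes with at least 2 bright probe sets, holds no spread between mice. It also leaves out any spread from capture, amplification or array that the probe sets of a gene share.

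Casp4, on chromosome 9 at 5308849 to 5336791, was the one member with germ-free changes of opposite sign in colon and ileum that both passed this SD. It read 1616 in germ-free ileum and 2159 in wild type ileum, against 2164 in germ-free colon and 1058 in wild type colon. The wild type colon array was the low one, and germ-free colon reached the level of wild type ileum. Germ-free colon was 2.05-fold higher than wild type colon (log2 1.03), and 1.16% of measured genes were as high or higher. Germ-free ileum had a log2 change of -0.42 against wild type ileum. The colon change minus the ileum change was 1.45 log2, reached or passed by 0.569% of the genes measured in both regions. Casp4 rests on 1 probe set, and its colon change was 0.84 log2, under 2-fold, with median scaling between the arrays.

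Casp1, the gene of caspase-1, is the neighbour of Casp4 on chromosome 9, at 5298517 to 5307281. It read 2888 in germ-free ileum, 3282 in wild type ileum, 2864 in germ-free colon and 3041 in wild type colon. Its 4 values spanned 0.20 log2, the narrowest range of the members' brightest probe sets, where those of Casp4 spanned 1.03. On the other side of Casp4, Casp12 (5345442 to 5373034) was at or below the floor on 3 of the 4 arrays and read 73.2 in wild type ileum.

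To set the 2 neighbours Casp4 and Casp1 side by side, the sequences around their starts are shown, from 250 bases before to 50 after the start, as RefSeq gives them for GRCm38.p6, 5′ to 3′ on the plus strand. The Casp4 window is chr9:5308599-5308898 and the Casp1 window chr9:5298267-5298566. Capitals mark matches, on either strand, to GGG and TTTCC set 2 bases apart, a form of the element that NF-κB binds. The other motifs searched had no match in these windows, so none overlaps.
Casp4: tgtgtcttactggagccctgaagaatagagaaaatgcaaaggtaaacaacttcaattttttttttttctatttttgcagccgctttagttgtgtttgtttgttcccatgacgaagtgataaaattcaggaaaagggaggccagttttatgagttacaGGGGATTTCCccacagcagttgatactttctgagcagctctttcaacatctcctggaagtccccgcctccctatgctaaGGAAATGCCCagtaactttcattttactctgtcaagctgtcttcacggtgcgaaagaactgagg
Casp1: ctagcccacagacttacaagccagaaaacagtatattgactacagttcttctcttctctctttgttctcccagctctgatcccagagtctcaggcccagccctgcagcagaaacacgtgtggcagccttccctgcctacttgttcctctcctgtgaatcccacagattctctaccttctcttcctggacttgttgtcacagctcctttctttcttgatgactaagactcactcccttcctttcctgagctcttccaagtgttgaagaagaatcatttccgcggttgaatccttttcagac
The Casp4 window held 2 matches, GGGGATTTCC starting 93 bases before the gene start and GGAAATGCCC, on the other strand, starting 14 bases before it. Counted from a second annotated Casp4 start, the same matches begin 104 and 25 bases before it. Of 32851 mouse windows of this length, 1.63% held at least 1 match. This motif was picked after the Casp4 sequence had been read, so the match is a description and nothing more. The windows of 5 of the 8 members were in the table (Casp1, Casp4, Casp8, Nlrp6 and Pycard). None of them held, on either strand, GAAA repeated after 2 bases, the core of the interferon response element (3.44% of all windows did), or TTC and GAA set 4 bases apart, which STAT6 binds (6.95%). That says only that these letters are not in these windows.

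Casp8, on chromosome 1 at 58795233 to 58847503, read 3764 in germ-free ileum, 3475 in wild type ileum, 2458 in germ-free colon and 3175 in wild type colon. The germ-free colon array was the lowest, with a log2 change of -0.37 against wild type colon. In the ileum the change was 0.12.

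Nlrp6, on chromosome 7 at 140920902 to 140929192, encodes a sensor of the gut epithelium that has been tied to mucus release by goblet cells in mice. It read 3581 in germ-free ileum, 2796 in wild type ileum, 2765 in germ-free colon and 3200 in wild type colon. The highest array was germ-free ileum, with a log2 change of 0.36 against wild type ileum, and in colon the change was -0.21. Both changes were far under 2-fold.

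Pycard, on chromosome 7 at 127991373 to 127993867, had 3 probe sets. The brightest read 4844 in germ-free ileum, 5578 in wild type ileum, 3395 in germ-free colon and 3444 in wild type colon. Both ileum arrays stood above both colon arrays, while germ-free minus wild type was -0.02 log2 for colon and -0.20 for ileum. The second probe set, between 281 and 422, had a change of 0.31 in colon and -0.13 in ileum, so the probe sets did not share a direction in colon. The dimmest one stayed between 52.7 and 91.8, around the floor.

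Counted over the 7 genes with a probe set of their own, Casp4 alone (1 of 7) passed 2-fold upward on the germ-free colon array and Gsdmc2 alone (1 of 7) downward. Among all 11746 genes measured there, 1.29% passed 2-fold upward and 3.23% downward, that is 152 against 379 genes, with 296 against 275 in the values as deposited. The members' median log2 change was -0.18 (-0.10 as deposited, -0.35 with median scaling), beside -0.01 for all measured genes (0.09 and -0.14). In the ileum 0 of the 7 were past 2-fold in either direction, where 0.23% of 11750 genes were higher and 0.698% lower, and the members' median was -0.20 beside 0.03 for all genes. Over the genes measured in both regions, 2.16% had a colon change at least 1 log2 above the ileum change, as Casp4 did, and 4.98% at least 1 log2 below it, as Gsdmc2 did. Counts of 1 among 7 genes are too small to set the group apart from these shares.

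**Figure D2:**
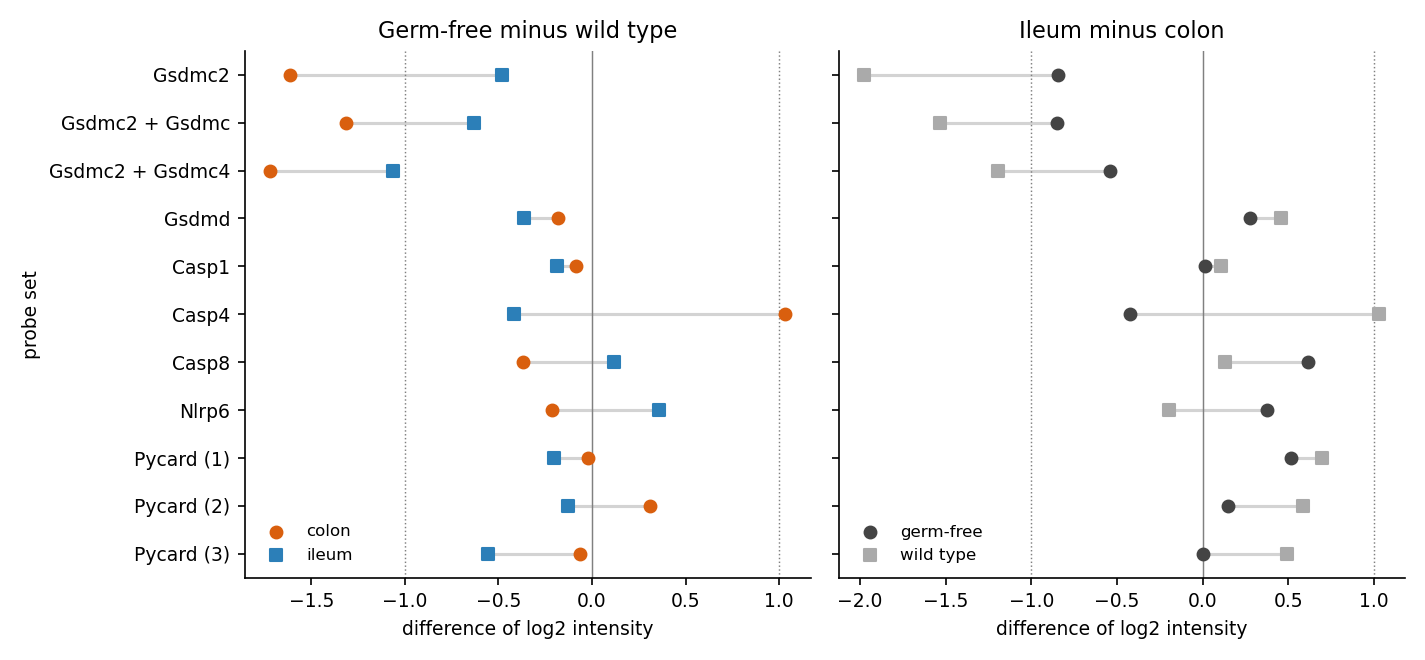
Differences of log2 intensity for the 11 member probe sets: left, germ-free minus wild type in colon (circles) and ileum (squares); right, ileum minus colon in germ-free (circles) and wild type mice (squares). Dotted lines mark 2-fold; the 3 Gsdmc probe sets lie left of 0 in all 4 comparisons, and Casp4 runs from -0.42 in ileum to 1.03 in colon.

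Between the regions, Gsdmc2 read lower in ileum than in colon, and the brightest Pycard probe set read higher, by less than 2-fold. In wild type mice ileum was 3.93-fold lower than colon for Gsdmc2 (log2 -1.98), with 1.54% of measured genes as low or lower, and 2.04-fold higher for Casp4. These were 1 gene lower and 1 higher of 7, where 5.93% of the 12000 measured genes passed 2-fold downward and 6.04% upward. In germ-free mice 0 of the 7 members were past 2-fold, where 5.88% of 11986 genes passed it downward (705) and 7.37% upward (883), with 1001 and 627 in the values as deposited. Gsdmc2 had a log2 difference of -0.85 there (-1.08 in the values as deposited, past 2-fold) and Casp4 of -0.42. The largest positive differences in germ-free mice were those of Casp8 (0.61) and Pycard (0.51), and Pycard had 0.70 in wild type mice.

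The genes with the pattern most like that of each member past 2-fold were sought among 7605 genes that were bright on at least 1 array, by the root mean square difference of log2 values centred on each gene's mean over the 4 arrays, with values under the floor kept as they were. For Gsdmc2 they were Cmtm8 (0.11 log2), Adh1 (0.13) and Fam13a (0.14). Adh1 read 1222 in germ-free ileum, 1450 in wild type ileum, 2166 in germ-free colon and 7296 in wild type colon, while Cmtm8 was below the floor on both ileum arrays and its difference from Gsdmc2 was 0.20 log2 with the floor, behind Adh1 and Fam13a. For Casp4 they were 4930402H24Rik (0.08), Slc5a9 (0.10) and Relb (0.11). Relb read 783 in germ-free ileum, 1050 in wild type ileum, 887 in germ-free colon and 523 in wild type colon. With 4 points per gene such likeness describes these arrays only.

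Among the other gasdermins, 3 of 8 listed symbols matched a gene and 2 were measured. Gsdme, whose protein caspase-3 cuts, read 2846 in germ-free colon against 1188 in wild type colon, 2.40-fold higher, the opposite direction to Gsdmc2. Its second probe set read 303 against 163 there, a change of 0.90. In the ileum it read 3928 in germ-free and 3919 in wild type mice, so that wild type colon was the low array, as for Casp4. Gsdma2 had a change of -0.48 in colon and 0.35 in ileum, and Gsdma was below the floor on all arrays.

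Of 13 listed other sensors 9 matched a gene, and 0 of 8 measured in colon and 0 of 6 in ileum were past 2-fold between germ-free and wild type. The list medians were -0.03 in both regions. Naip5, which binds bacterial flagellin in the mouse, had the largest colon change of the list, 0.68, at 2893 in germ-free and 1811 in wild type colon, and -0.14 in ileum. Naip2, which binds rod proteins of bacterial secretion systems, had changes of -0.23 and -0.32, and Nlrp3 had -0.48 and -0.14. Naip genes are close copies, and their probe sets may share signal.

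The IL-1 family list held the gene with the largest colon change of the 8 partner lists. Il1rn, which encodes the antagonist of the IL-1 receptor, read 775 in germ-free colon against 207 in wild type colon, 3.75-fold higher, and its second probe set had a like change of 1.97 log2. In the ileum the brightest probe set had 0.91 and the second -0.01. Il18, a substrate of caspase-1, read 276 in germ-free colon against 760 in wild type colon, 2.75-fold lower, and 914 in germ-free ileum against 588 in wild type ileum, a change of 0.64. Its direction thus differed between the regions, the reverse of Casp4. In all 1 of 10 measured genes passed 2-fold upward and 1 downward in colon, and 0 of 10 were past 2-fold in ileum. The list median was 0.04 in colon (-0.14 with median scaling) and -0.14 in ileum. Il1b, the other main substrate, and Il1a were below the floor on all 4 arrays.

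Among the pyroptosis helpers and regulators, 2 of 9 measured genes passed 2-fold downward and 0 upward in each region. Over all measured genes the shares were 3.23% downward and 1.29% upward in colon, and 0.698% and 0.23% in ileum. The germ-free counts of the other lists stand beside the same shares, and counts so small do not set a list apart. Ninj1, whose product ruptures the membrane after pore formation, read 639 in germ-free colon against 1586 in wild type colon (2.48-fold lower). Its 3 dimmer probe sets had the same direction, with changes of -0.35 and -0.23, under 2-fold, and, with germ-free colon at the floor, -0.54. Gzma and Gzmb encode proteases of cytotoxic lymphocytes and are also counted among the lymphocyte markers below. Gzma was at least 2.46-fold lower in germ-free than in wild type colon and 3.08-fold lower in ileum, and Gzmb was at least 2.04-fold lower in ileum (a change of -0.96 as deposited, under 2-fold). Serpinb1a, whose product inhibits neutrophil proteases and caspase-1, had a colon change of 0.54. The list medians were -0.14 in colon (-0.05 as deposited, -0.28 with median scaling) and -0.25 in ileum (-0.50 as deposited).

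Of the other caspases and Apaf1, 0 of 5 measured genes were past 2-fold in either region between germ-free and wild type. Casp9, the initiator caspase of the apoptosome, had the largest change in colon, 0.64, and Casp6 had -0.27 in colon and -0.26 in ileum. Of 14 measured death receptor and necroptosis genes, 1 passed 2-fold upward and 1 downward in colon, and 0 in ileum. Tnfsf10, the death ligand TRAIL, read 388 in germ-free colon against 183 in wild type colon, 2.12-fold higher. Its 2 dimmer probe sets had changes of 0.53 and, with wild type colon at the floor, 0.54. Zbp1, a nucleic acid sensor that engages the necroptosis kinase RIPK3, read 130 against 334, 2.58-fold lower, but its second probe set had a change of 0.25. Fas had the largest ileum change of this list, -0.85. The partners of caspase-8 were within 2-fold in colon: Fadd had a change of -0.12 and Cflar, the caspase-8 inhibitor, of 0.33.

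Guanylate binding proteins and immunity-related GTPases, interferon-induced proteins that open pathogen vacuoles and help lipopolysaccharide reach caspase-4, were listed with interferon regulatory factors. In colon 1 of 13 measured genes was at least 2-fold lower and 0 higher: Igtp, at 181 in germ-free against 447 in wild type colon (2.47-fold). In ileum 0 of 13 were past 2-fold, with Gbp8 nearest, at least 1.98-fold lower, then Irgm2 (-0.82) and Gbp3 (-0.78). The list medians were -0.24 in colon (-0.05 as deposited, -0.30 with median scaling) and -0.46 in ileum, where that of all measured genes was 0.03. Irf1 read 5129 in germ-free colon against 6586 in wild type colon, and Irf2, which drives Gsdmd and Casp4 transcription in some cells, read 1355 against 1392. Of 4 measured genes of type 2 cytokine signalling (the receptor genes Il4ra and Il13ra1, the transcription factor gene Stat6 and the kinase gene Jak1), 0 were past 2-fold in either region by their brightest probe sets. Il4ra had a colon change of -0.77, at 179 in germ-free against 306 in wild type colon, and Il13ra1 of -0.40. In ileum the brightest Il13ra1 probe set had -0.08 but the 4 dimmer ones had -0.48, -0.70, -0.78 and, with germ-free ileum at the floor, -1.90.

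**Figure D3:**
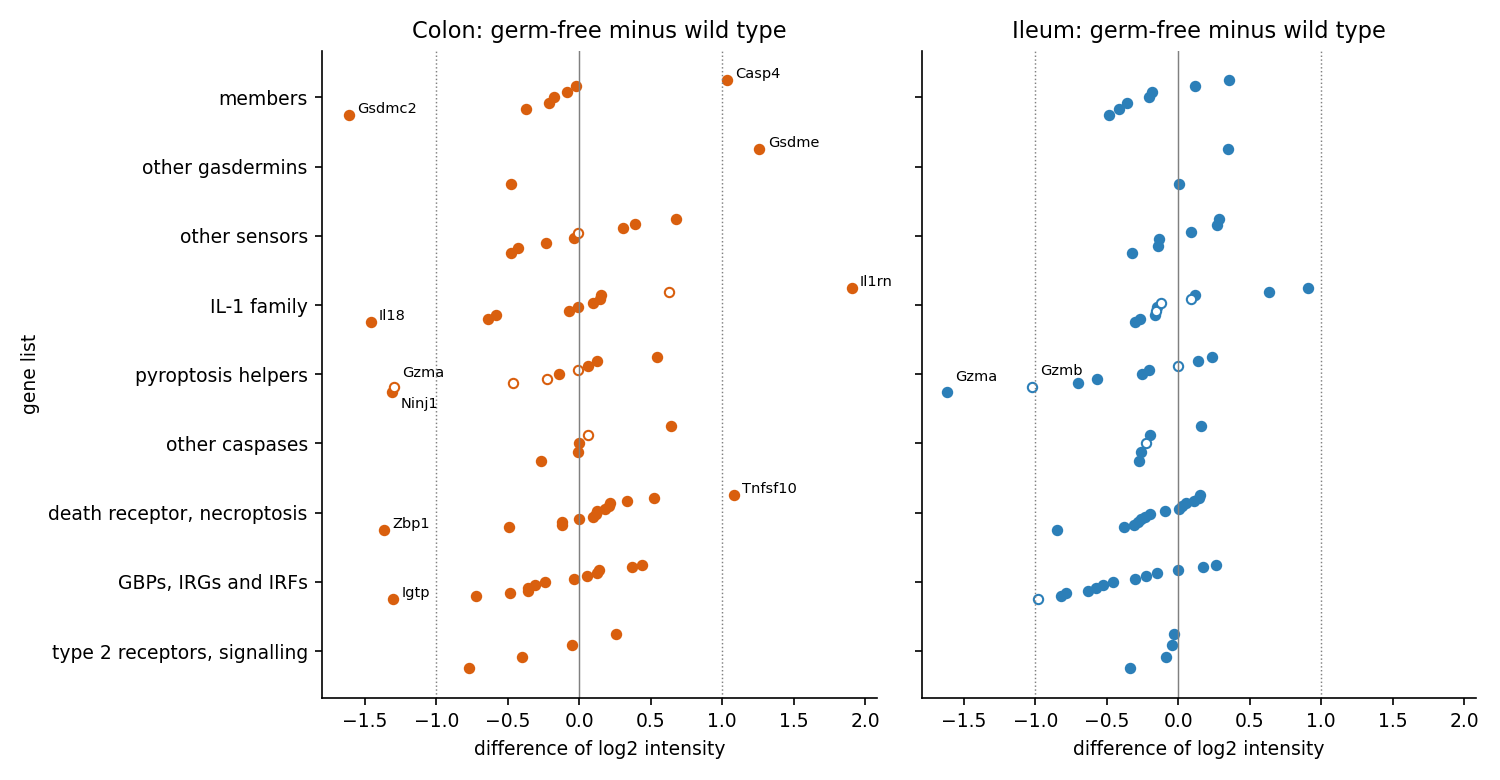
Difference of log2 intensity between germ-free and wild type for each measured gene of the members and of 8 lists of pathway partners, in colon (left) and ileum (right). Open circles are values with 1 array at the floor, dotted lines mark 2-fold, and genes past it are named; the colon panel holds 5 genes past 2-fold to the right or left in the gasdermin, IL-1 and death receptor lists, and the ileum panel Gzma and Gzmb alone.

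In wild type mice ileum was at least 2-fold above colon for Gsdme (3.30-fold), Naip5 (2.47-fold), Gzma (2.92-fold), the neutrophil elastase gene Elane (3.87-fold), Serpinb1a (2.15-fold), Apaf1 (2.38-fold), Bid (2.56-fold) and Tnfsf10 (2.35-fold). It was below colon for the NLRP3 partner Nek7 (3.06-fold), Txnip (2.05-fold), Casp6 (2.64-fold), the necroptosis effector Mlkl (2.40-fold), Zbp1 (2.31-fold) and Il1rn (2.08-fold). The second probe set of Casp6 had a regional difference of 0.26 and that of Zbp1 of 0.13, against the direction of the brighter ones, and the dimmer probe set of Bid above the floor had 0.32. The second Txnip probe set had -0.13 with wild type ileum at the floor. Over the 12000 measured genes 6.04% passed 2-fold upward and 5.93% downward, and genes named from short lists do not set a list apart.

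In germ-free mice ileum was above colon for Il18 (3.31-fold), Ninj1 (2.46-fold), Il13ra1 (2.43-fold) and Il4ra (2.17-fold), and at least 2.39-fold for Elane and 2.33-fold for Gzma. The dimmer probe sets of Ninj1 had -0.61 and, each with 1 array at the floor, -0.35 and 0.01 in that comparison. Its regional difference past 2-fold was thus seen only with the brightest probe set. The dimmer probe sets of Il13ra1 had 1.03, 0.77 and 0.28, and 0 where both germ-free arrays were below the floor. Ileum was below colon for Il1rn (4.15-fold), Txnip (3.31-fold), Mlkl (3.24-fold), Casp6 (2.63-fold), Nek7 (2.53-fold) and Casp2 (2.21-fold), and at least 2.26-fold for Gbp8. Il4ra had 0.82 log2 as deposited and Casp2 -0.90 with median scaling, both under 2-fold, and the second Casp6 probe set had 0.77, the opposite direction to the brighter one. All 3 Nek7 probe sets read lower in ileum in both states. The second Txnip probe set had -0.11 with germ-free ileum at the floor. Over the 11986 genes measured in germ-free mice 7.37% passed 2-fold upward and 5.88% downward.

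**Figure D4:**
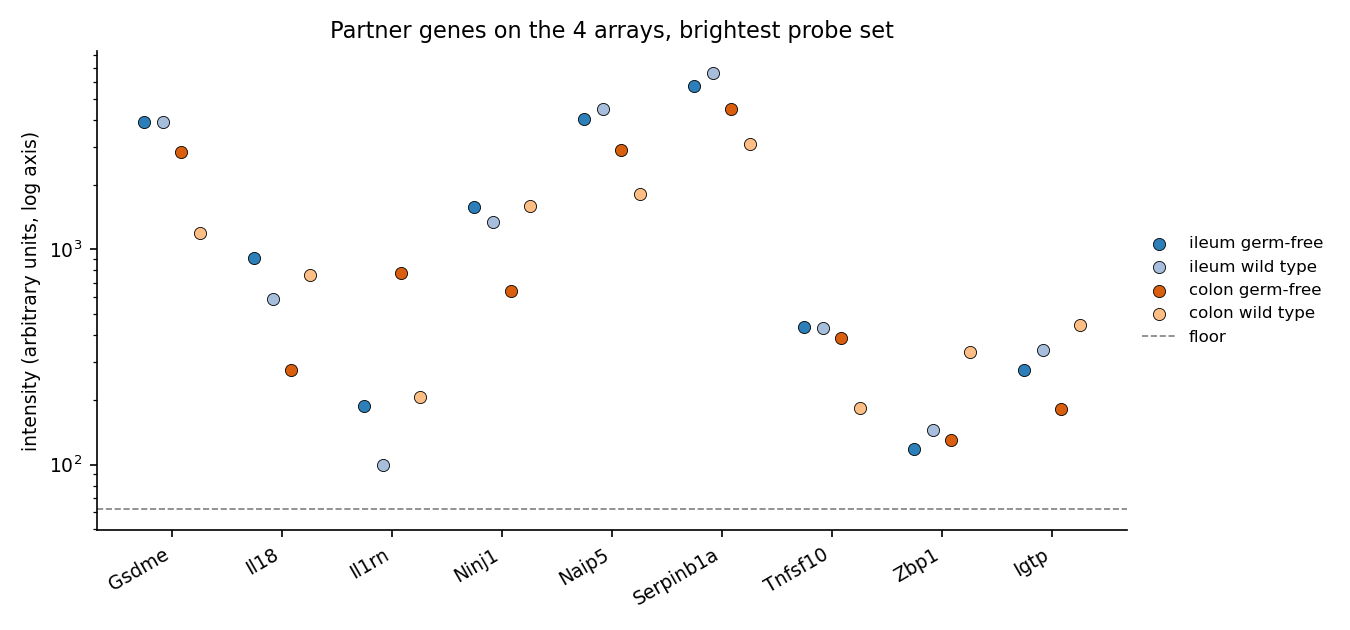
Intensity (log axis, arbitrary units) of 9 partner genes by their brightest probe set on the 4 arrays, with the floor as a dashed line. Gsdme, Naip5, Serpinb1a and Tnfsf10 are lowest on the wild type colon array, Il18, Ninj1 and Igtp on the germ-free colon array.

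The captured cells carried the markers of epithelium, and some markers of other cells moved with the groups. All 8 epithelial markers were above the floor on every array, with summed intensities between 68258 and 81314, and the 6 colonocyte markers summed to 18032 in germ-free and 18549 in wild type ileum and to 54415 in germ-free and 54911 in wild type colon. Among these Aqp8, a water channel gene, was 7.14-fold lower in germ-free than in wild type colon (76.4 against 545), beside the lower Gsdmc2 there, and the other 5 were within 2-fold in colon. For the 10 lymphocyte markers the sum was 1330 in germ-free and 2067 in wild type ileum, and 938 in germ-free and 1408 in wild type colon. Of these, 4 (Cd3e, Cd3g, Cd3d and Cd7) were below the floor on all arrays, and 2 of 6 measured ones were at least 2-fold lower in germ-free mice in each region. They were Cd8a and Gzma in colon, and in ileum Gzma and Gzmb, the same genes as in the list of pyroptosis helpers. The 10 myeloid markers summed to 3034 in germ-free and 3605 in wild type ileum, and to 2023 in germ-free and 2201 in wild type colon, with Itgax, Cd68, S100a8 and S100a9 below the floor on all arrays. In germ-free mice 1 of 4 measured myeloid markers was at least 2-fold lower in colon (Adgre1, 2.14-fold) and 1 of 6 in ileum (Lyz2, 2.02-fold). In each region 0 were at least 2-fold higher, though Cd14 was 1.97-fold higher in germ-free colon. The 6 matched plasma and B cell markers summed to 2685 in germ-free against 12393 in wild type ileum and to 918 in germ-free against 6419 in wild type colon, most of it Jchain and Igha. These were the 2 at least 2-fold lower in germ-free mice, of 3 measured in colon and 4 in ileum. Mzb1 was within 2-fold in both regions, Cd79b was at least 1.55-fold lower in ileum, and Cd79a and Ms4a1 were below the floor on all arrays. The 6 tuft cell markers summed to 696 in germ-free against 866 in wild type ileum and to 530 in germ-free against 855 in wild type colon. In colon 2 of 5 measured ones were at least 2-fold lower in germ-free mice (Dclk1, 2.30-fold, and Trpm5, 2.06-fold), and 0 in ileum. Alox5ap went the other way in colon, at 77.4 against 62.2. The 6 endothelial markers summed to 458 in germ-free and 448 in wild type ileum and to 285 in germ-free and 650 in wild type colon, where 1 of 3 measured ones (Kdr, 2.80-fold) was at least 2-fold lower; Pecam1 and Vwf were below the floor on all arrays. The 8 fibroblast and smooth muscle markers summed to 3964 in germ-free and 6129 in wild type ileum, where 3 of 7 (Des, Tagln and Vim) were at least 2-fold lower, and to 3489 in germ-free and 3752 in wild type colon, with Myh11 below the floor on all arrays. The 5 matched markers of ileal enterocytes summed to 22822 in germ-free and 15397 in wild type colon, most of it Fabp2 (14524 and 13235). In colon 1 of 5 measured ones was at least 2-fold higher and 0 lower in germ-free mice. This was Fabp6, at 6008 in germ-free against 767 in wild type colon (7.83-fold). In pooled captures fewer cells of a type and less RNA per cell cannot be told apart, and the part of these shifts in the values above was not tested.

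Control signals used to judge RNA quality also differed between germ-free and wild type arrays and, in wild type mice, between the regions. The 5′ signal of the control transcript Gapdh relative to its 3′ signal was lower in germ-free than in wild type mice, with log2 differences of -0.48 for colon and -1.10 for ileum; for Actb these values were -0.12 and -1.20. The 3 control probe sets for 18S ribosomal RNA had changes between -1.62 and -0.63 in colon and between -0.96 and -0.47 in ileum, in the values as deposited. The log2 ratio of 5′ to 3′ signal for Actb was -1.91 in wild type ileum and -3.12 in germ-free ileum. In colon it was -3.38 in wild type and -3.50 in germ-free mice. For Gapdh the ratios were -2.98, -4.08, -3.61 and -4.09 in that order. The wild type ileum array was thus the highest for both transcripts. Each group had 1 array, so RNA quality can be told apart neither from the germ-free state nor from the region.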

How the data were processed

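Probe set values of 4 single-colour Affymetrix mouse arrays were used, 1 per group, each of RNA from about 16000 laser-captured cells of 4 mice (40 ng, 2 rounds of amplification, per the labels' protocols and the design text). The deposited values are linear intensities that dCHIP2004 produced for the authors, per the design text. Which background, model and normalization options they chose is not given in the sources used, and intensities near the background limit how small a level can be read.

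Among the brighter 50% of probe sets the array medians differed by up to 0.32 log2, above a limit of 0.25, so the log2 values were quantile-normalized over 45037 probe sets, without the 64 controls (Python 3.11.15, numpy 2.4.6, pandas 2.3.3). Values under 1 were set to 1, then values under the pooled median (62.4) to that floor. A gene was measured if at least 1 of the compared arrays was above the floor. It was given by its brightest probe set that names 1 gene (34945 probe sets, 18193 genes; 932 probe sets name several genes and 9160 are unnamed here). Symbols were checked through Entrez identifiers in RefSeq's table for GRCm38.p6 (34754 found, 0 changed). Differences of log2 values were taken and changes past 2-fold counted; with 1 array per group no test was made. The steps were tested on simulated data. The tuft, lymphocyte and other marker lists and the 8 partner lists were matched by symbol. All members of the group were described. In each list and comparison the genes past 2-fold were named, where none or few were, up to 3 of largest change, and others where their value was the point; for each member past 2-fold, the 3 genes of most like pattern were named. Members and lists were chosen with earlier results of these data known. Other scalings, floors, probe set rules and a 1.5-fold threshold were tried as alternatives.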

Additional observations from a re-analysis of the deposited data

Results flagged for a closer look

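Casp4 differed in opposite ways in the 2 regions: its germ-free change was 1.03 log2 in colon and -0.42 in ileum, each larger than the SD between probe sets of the same gene (0.32 and 0.22). The colon change minus the ileum change was 1.45 log2, between 1.28 and 1.57 under the alternatives. The difference rests on 1 probe set and 1 array per group and was not tested. No group had enough arrays for a check of single samples that stand apart.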

How the results depend on the processing

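No paired analysis was possible because each group had 1 array. Of 285 single values of members and shared probe sets under an alternative, 285 moved by less than the SD between probe sets of the same gene, and 0 turned a change past 2-fold round. Most of these values could not move. The shared probe sets and the brightest one of each member were above the highest floor tried (258.6) on every array. Only Pycard had more than 1 probe set of its own. The comparison therefore tests little beyond the scaling. The count of members at least 2-fold higher in germ-free colon was 0 in place of 1 with median scaling, where Casp4 had a log2 change of 0.84, and at least 2-fold lower in germ-free ileum against germ-free colon 1 in place of 0 in the values as deposited, where Gsdmc2 passed 2-fold. With 1.5-fold in place of 2-fold, the members higher in ileum than in colon were 2 in wild type and 1 in germ-free mice, and 1 was lower in germ-free mice.

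Counts over all genes depended more on the floor. In the values as deposited there were 296 higher in germ-free against wild type colon. With the floor at the 25th percentile there were 409 higher and 768 lower in germ-free against wild type colon, 145 higher and 233 lower in germ-free against wild type ileum, 1375 higher in germ-free ileum against colon. With the floor at the 75th percentile there were 50 higher and 136 lower in germ-free against wild type colon, 5 higher and 22 lower in germ-free against wild type ileum, 427 higher and 395 lower in wild type ileum against colon, 419 higher and 384 lower in germ-free ileum against colon. With no floor there were 1230 higher and 1634 lower in germ-free against wild type colon, 886 higher and 970 lower in germ-free against wild type ileum, 1789 higher and 1794 lower in wild type ileum against colon, 2299 higher and 1853 lower in germ-free ileum against colon. At 1.5-fold there were 727 higher and 1273 lower in germ-free against wild type colon, 282 higher and 372 lower in germ-free against wild type ileum, 1627 higher and 1662 lower in wild type ileum against colon, 2061 higher and 1604 lower in germ-free ileum against colon. With the mean of all probe sets of a gene there were 218 lower in germ-free against wild type colon. The counts to set beside these were 152 higher and 379 lower in germ-free against wild type colon, 27 and 82 in ileum, 725 and 712 in wild type ileum against colon and 883 and 705 in germ-free ileum against colon. The split of the calls moved with the scaling: it was 296 higher and 275 lower as deposited and 121 and 499 with median scaling in germ-free against wild type colon, and 627 and 1001, then 1072 and 586, in germ-free ileum against colon. The median of all measured genes in germ-free against wild type colon was -0.01, 0.09 as deposited and -0.14 with median scaling, and in germ-free ileum against colon 0.04, -0.11 and 0.19 in that order.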
